A study of Sus scrofa with 8 samples.

Results

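The complement components and regulators described here were 9 genes, C1QA, C1QB, C1QC, C1R, C1S, C3, CFD, CFB and SERPING1, found by their names among the 31014 genes of a raw RNA-seq count table of pig heart. The samples were heart tissue of wild-type (WT) miniature pigs, 5 treated with doxorubicin, an anthracycline chemotherapy drug known for cardiac toxicity, and 3 treated with vehicle. All 8 samples carried the same WT genotype, and treatment was the only difference between the groups in the labels. Nothing in the sources used here gives the dose, the schedule, the time after treatment, the age or sex of the animals, or the region of the heart. Whether each sample was a different animal is not labelled either, and the p-values below therefore reflect sample-to-sample spread that may be technical.

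Complement is a cascade of plasma proteases and their substrates that tags cells and debris for uptake and can end in a lytic pore. In the classical pathway C1q, built of A, B and C chains, recognises its target and activates the proteases C1r and C1s, while C1 inhibitor, the product of SERPING1, inactivates both proteases. Factor D cleaves factor B in the alternative pathway, and all pathways meet at C3. Most circulating complement comes from the liver, but C1q is made mainly by macrophages and dendritic cells, C1r, C1s, C1 inhibitor and C3 are also made by fibroblasts and other stromal cells, and factor D, also called adipsin, is made mainly by adipocytes.

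Library totals ran from 17442566 to 18267178 counts in doxorubicin samples and from 16105242 to 17195538 counts in vehicle samples. Levels below are CPM, counts relative to the library total after scaling by the trimmed mean of M-values (TMM). Doxorubicin 5 stood apart: its mean correlation with its own group was 0.912, against 0.941 to 0.956 in the other 4 doxorubicin libraries and 0.974 to 0.977 among the vehicle libraries, so fold changes of the 9 genes are also given without it. Cardiomyocyte markers summed to 36912 to 67180 CPM in doxorubicin libraries and 64148 to 71329 CPM in vehicle libraries, with doxorubicin 5 the lowest, so the labelled tissue carried its defining markers. Over the 14938 genes with enough reads to test, edgeR's quasi-likelihood test called 24.9% at an adjusted p under 0.05 (Benjamini-Hochberg), 13.6% higher and 11.3% lower in doxorubicin hearts.

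All 9 genes had a single protein-coding locus of that name on Sscrofa11.1. The C1q chain genes lay side by side on the forward strand of chromosome 6, C1QA at chr6:80586259-80589213, C1QC at chr6:80592591-80597464 and C1QB at chr6:80601680-80606076, a stretch of 19818 bases in all. C1R (chr5:63644097-63655149, forward strand) and C1S (chr5:63670309-63681466, reverse strand) were separated by 15159 bases. C3 lay at chr2:72431470-72471622 and SERPING1 at chr2:13324160-13338826. CFD (chr2:77509792-77511988, reverse strand) lay inside MED16, a Mediator subunit gene on the opposite strand, and CFB (chr7:24034077-24040523) directly between C2 and NELFE. The strand setting of the counting is not stated in the labels or the table, so reads of CFD and MED16 cannot be told apart with certainty. MED16 had 427 to 706 reads in doxorubicin libraries and 331 to 422 reads in vehicle libraries and did not pass the test (log2 fold change 0.17, SE 0.20, adjusted p = 0.551). A second locus that RefSeq describes as complement C3 (LOC100517145) held 0 to 7 reads in each library.

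Doxorubicin hearts had higher transcript levels of all C1q chains and a lower level of the alternative pathway protease factor D than vehicle hearts. Of the 9 genes, 3 were higher, 1 was lower and 5 did not pass, against the 24.9% called over all tested genes. Libraries of the 2 groups did not overlap for 4 of the 9, the same 4 genes, against 34.9% of all tested genes (17.1% separated upward and 17.8% downward). The C1q chains were 2.49- to 4.51-fold higher in doxorubicin hearts and CFD was 2.92-fold lower, whereas C1R, C1S, C3, CFB and SERPING1 overlapped between the groups. Scaling to library size alone moved the median log2 fold change of all genes to 0.38 and the split of calls to 4093 higher and 499 lower, against 2033 higher and 1681 lower with TMM, and left the members at 3 higher and 1 lower.

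**Figure D1:**
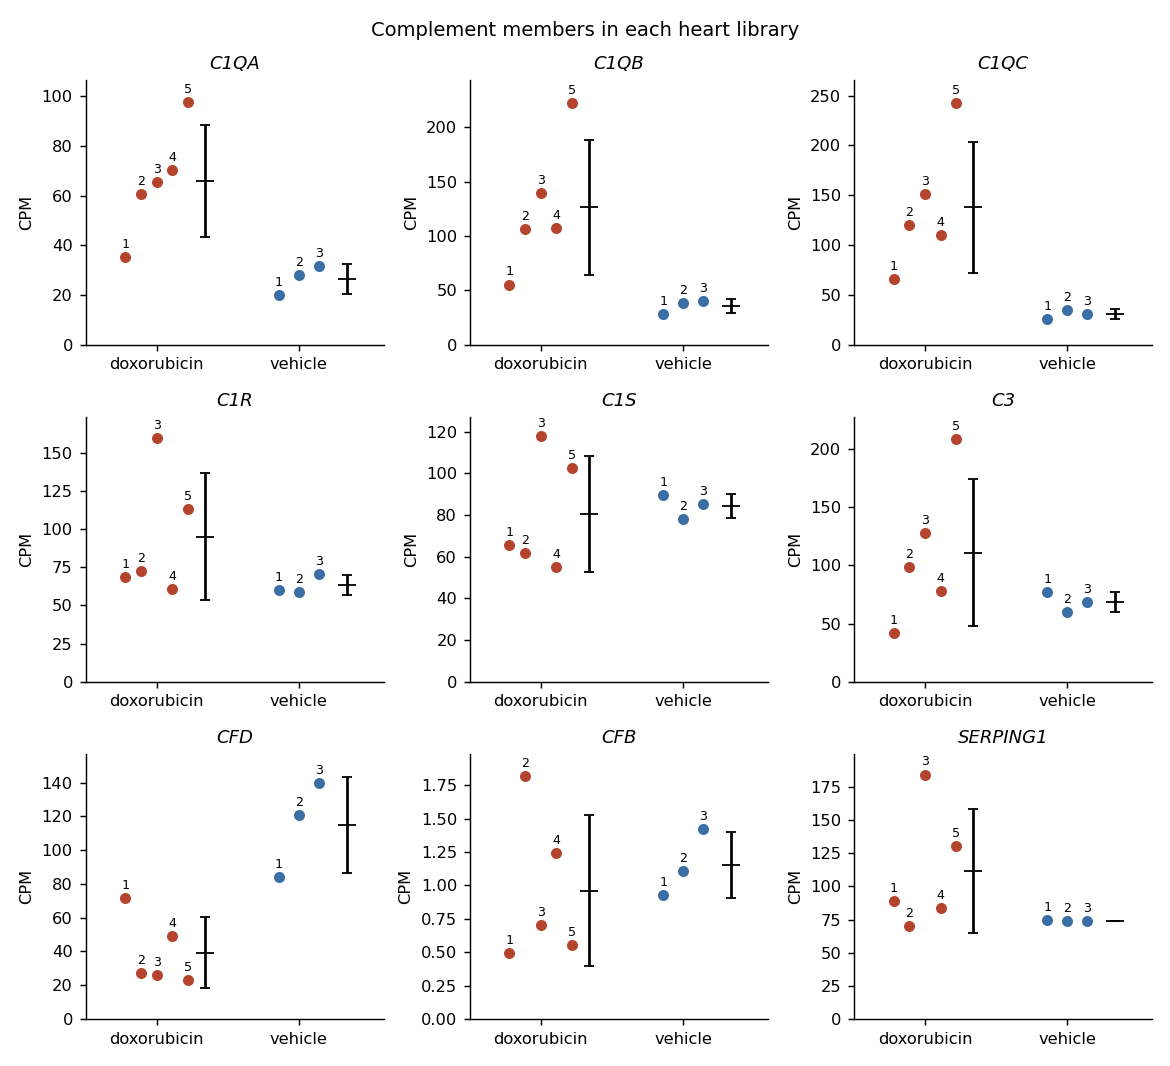
Level of each gene (CPM, TMM-scaled, linear axes from 0) in the 5 doxorubicin libraries and the 3 vehicle libraries, numbered by replicate, with the mean and SD of each group beside the points. C1QA, C1QB and C1QC lie higher and CFD lower in every doxorubicin library than in any vehicle library, and the other 5 genes overlap.

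C1QC, which encodes the C chain of C1q, had 66.0, 120.1, 151, 110.3 and 242 CPM in doxorubicin libraries 1 to 5 and 25.5, 35.0 and 31.2 CPM in vehicle libraries 1 to 3. The lowest doxorubicin library, doxorubicin 1, was above the highest vehicle library. The log2 fold change was 2.17 (SE 0.38, adjusted p = 0.00807), and 1.88 (adjusted p = 0.00263) without doxorubicin 5. C1QB, the B chain gene, had 55.4, 106, 140.0, 107 and 223 CPM in doxorubicin libraries 1 to 5 and 28.6, 37.9 and 40.5 CPM in vehicle libraries 1 to 3. Again doxorubicin 1 was lowest and doxorubicin 5 highest of the treated libraries, and the groups were separate. Its log2 fold change was 1.82 (SE 0.39, adjusted p = 0.0135), and 1.52 (adjusted p = 0.00646) without doxorubicin 5.

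C1QA, the A chain gene, had 35.1, 60.5, 65.4, 70.4 and 97.7 CPM in doxorubicin libraries 1 to 5 and 19.8, 27.9 and 31.6 CPM in vehicle libraries 1 to 3. It showed the smallest separation of the chains, with doxorubicin 1 just above vehicle 3. Its log2 fold change was 1.32 (SE 0.31, adjusted p = 0.0166), and 1.13 (adjusted p = 0.0106) without doxorubicin 5. Summed over the chains, C1q RNA averaged 330.1 ± 149 CPM in doxorubicin hearts and 92.6 ± 16.3 CPM in vehicle hearts (SD, n = 5 and 3). The adjusted p rose above 0.05 without vehicle 1 for C1QA (0.0823), C1QB (0.0709) and C1QC (0.0509), without vehicle 2 for C1QA (0.0523), and without vehicle 3 for C1QA (0.0589) and C1QB (0.0595), with log2 fold changes of 1.14 to 2.06 in those fits.

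The chains did not keep one ratio to each other. C1QA relative to C1QB was 0.633, 0.569, 0.467, 0.655 and 0.439 in doxorubicin libraries 1 to 5 and 0.693, 0.737 and 0.780 in vehicle libraries 1 to 3. Every doxorubicin library had less A chain RNA per B chain RNA than any vehicle library. C1QC relative to C1QB ran from 1.03 to 1.19 in doxorubicin libraries and from 0.772 to 0.921 in vehicle libraries (CPM not scaled by gene length), so every doxorubicin library had more C chain RNA per B chain RNA than any vehicle library. C1QA relative to C1QC ran from 0.403 to 0.638 in doxorubicin libraries and from 0.776 to 1.01 in vehicle libraries. On the log2 scale the mean ratios differed between doxorubicin and vehicle by -0.43 for C1QA to C1QB, 0.36 for C1QC to C1QB and -0.79 for C1QA to C1QC, and without doxorubicin 5 by -0.35, 0.36 and -0.71. These ratios compare genes of 1 library, so its scaling cancels, and no test was run on them. The groups did not overlap for 34.9% of single tested genes, and the share of gene pairs that separate was not worked out.

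**Figure D2:**
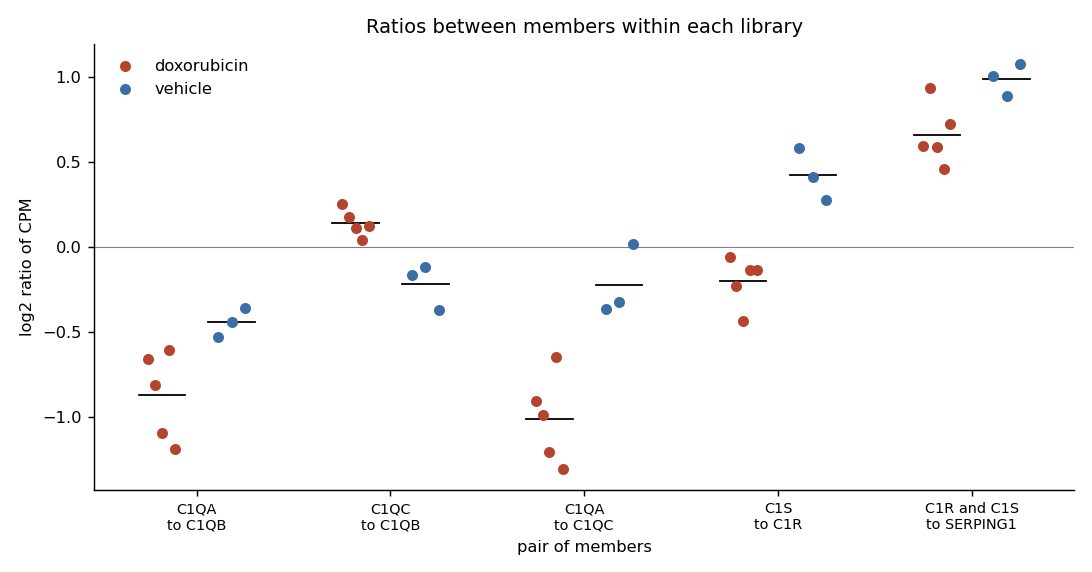
Log2 ratio of CPM between pairs of genes within each of the 5 doxorubicin libraries and 3 vehicle libraries, with a bar at each group's mean. The groups do not overlap for the 3 pairs of C1q chains or for C1S to C1R, and they overlap for C1R and C1S together relative to SERPING1.

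Of 12 macrophage markers tested, 5 were higher, 0 lower and 7 not called in doxorubicin hearts by edgeR's quasi-likelihood test, against 13.6% higher over all tested genes. The counts were 7 higher and 1 lower at an unadjusted p under 0.05, 7 higher and 0 lower by DESeq2, 5 higher and 1 lower by limma voom, and 4 higher and 0 lower with the gene density trend removed. The called markers were TREM2, CSF1R, CD68, TYROBP and CSF2RA. CSF1R, the receptor for macrophage colony-stimulating factor, averaged 70.8 ± 26 CPM in doxorubicin hearts and 26.8 ± 3.91 CPM in vehicle hearts (log2 fold change 1.40, SE 0.30, adjusted p = 0.0132; 1.48 without doxorubicin 5), and its call was lost in 2 of the 8 fits that left out a library (highest adjusted p 0.0706, without vehicle 1). TREM2 had 0 or 1 read in each vehicle library, and MARCO, a scavenger receptor, was too low to test in both groups. The resident macrophage markers CD163 (32.5 ± 11.9 CPM in doxorubicin hearts, 24.4 ± 4.37 CPM in vehicle hearts, adjusted p = 0.333) and MRC1 (14.7 ± 7.79 CPM in doxorubicin hearts and 12.3 ± 2.10 CPM in vehicle hearts, adjusted p = 0.641) did not pass. VSIG4, a complement receptor of resident macrophages outside this list, was higher (log2 fold change 1.53, adjusted p = 0.0205). Of the 12 tested markers, 11 had a positive log2 fold change and 1 a negative one.

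The 13 listed macrophage markers summed to 119 to 292 CPM in doxorubicin libraries and 100.4 to 131 CPM in vehicle libraries. Relative to that sum, C1q RNA was 1.31, 1.31, 1.3, 1.35 and 1.93 in doxorubicin libraries 1 to 5 and 0.736, 0.851 and 0.787 in vehicle libraries 1 to 3, so C1q was higher per macrophage marker in every treated library. Relative to CSF1R alone it was 3.26 to 4.02 in doxorubicin libraries 1 to 4, 10.1 in doxorubicin 5 and 3.31 to 3.54 in vehicle libraries, which overlap. Relative to CD163 it was 6.79 to 15.6 in doxorubicin libraries and 3.58 to 4.19 in vehicle libraries. Which marker served as the denominator thus set whether the groups overlapped, and these denominators were chosen after the values were seen. In bulk tissue, fewer or more cells of a type and less or more RNA per cell cannot be told apart. The part of macrophage number in the C1q result was not tested.

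**Figure D3:**
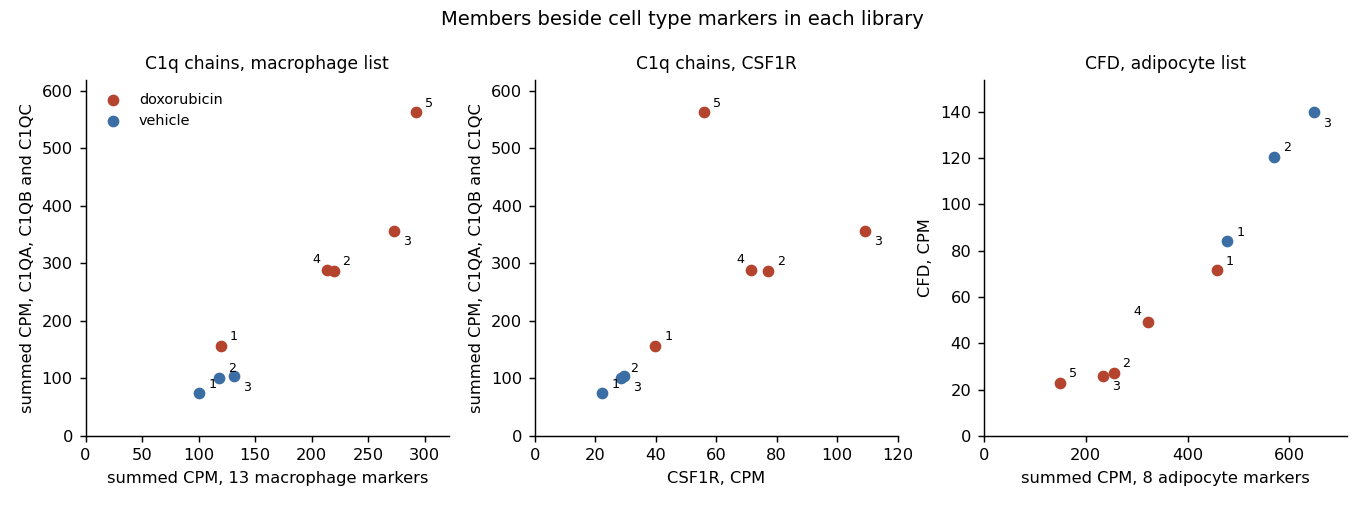
Left and middle, summed CPM of C1QA, C1QB and C1QC against the summed CPM of 13 macrophage markers and against CSF1R; right, CPM of CFD against the summed CPM of 8 adipocyte markers; points are the 5 doxorubicin and 3 vehicle libraries, numbered by replicate. Doxorubicin 5 has the most C1q RNA (563 CPM) with a CSF1R level below doxorubicin 2, 3 and 4, and libraries low in adipocyte markers are low in CFD.

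The proteases that C1q activates and their inhibitor did not pass the test. C1R had 68.4, 72.5, 159.8, 60.5 and 113 CPM in doxorubicin libraries 1 to 5 and 59.8, 58.9 and 70.6 CPM in vehicle libraries 1 to 3 (log2 fold change 0.59, SE 0.32, adjusted p = 0.188). C1S had 65.7, 61.8, 118, 54.9 and 103 CPM in doxorubicin libraries 1 to 5 and 89.5, 78.4 and 85.5 CPM in vehicle libraries 1 to 3. For both genes doxorubicin 3 and 5 were the highest of all 8 libraries. In doxorubicin 1, 2 and 4, C1R lay at 60.5 to 72.5 CPM, close to the vehicle range, and C1S lay at 54.9 to 65.7 CPM, below every vehicle library. The log2 fold change of C1S was -0.07 (SE 0.26, adjusted p = 0.867). It was -0.40 (adjusted p = 0.0319) by limma voom with quality weights, and its sign turned to 0.30 (adjusted p = 0.444) with scaling to library size alone, 0.02 without doxorubicin 2 and 0.04 without doxorubicin 4. Without doxorubicin 5 the log2 fold changes were 0.52 for C1R and -0.17 for C1S.

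C1S relative to C1R separated the groups although neither gene did. The ratio was 0.961, 0.852, 0.738, 0.908 and 0.908 in doxorubicin libraries 1 to 5 and 1.5, 1.33 and 1.21 in vehicle libraries 1 to 3. These are ratios of CPM, not scaled by gene length, and they were lower in every doxorubicin library than in any vehicle library, with a difference in mean log2 ratio of -0.62 that ran from -0.70 to -0.54 when any 1 library was left out. No test was run on this ratio, and how often pairs of other genes separate the groups was not worked out.

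SERPING1, the gene of C1 inhibitor, had 88.9, 70.2, 185, 84.0 and 131 CPM in doxorubicin libraries 1 to 5 and 74.3, 74.1 and 74.0 CPM in vehicle libraries 1 to 3. The vehicle libraries were nearly equal (74.1 ± 0.149 CPM), while the doxorubicin libraries spread over 2.63-fold, and 4 of 5 lay above all vehicle libraries. The log2 fold change was 0.59 (SE 0.30, adjusted p = 0.166), and 0.53 (adjusted p = 0.213) without doxorubicin 5. It depended on the method, with 0.17 by limma voom, 0.25 with the gene density trend removed and 0.97 with scaling to library size alone. The summed RNA of C1R and C1S relative to SERPING1 was 1.37 to 1.92 in doxorubicin libraries and 1.85 to 2.11 in vehicle libraries, which overlap. Fibroblast markers, which mark one source of these proteins, had 3 of 10 higher and 1 lower in doxorubicin hearts. Over all tested genes 13.6% were higher and 11.3% lower. The marker counts were 5 and 1 at an unadjusted p under 0.05 and by DESeq2. Limma voom gave 5 and 2, and removal of the gene density trend gave 4 and 0. The markers summed to 2772 to 6618 CPM in doxorubicin libraries 1 to 4, to 27124 CPM in doxorubicin 5 and to 1521 to 1742 CPM in vehicle libraries. The collagen genes COL1A1 and COL3A1 were higher and PDGFRA, a growth factor receptor on fibroblasts, was lower (adjusted p = 0.0165, 0.0343 and 0.0355), and each of these calls was lost in 3 to 5 of the 8 fits that left out a library. Without doxorubicin 5 the log2 fold change was 3.13 for COL1A1 and 1.86 for COL3A1, against 4.17 and 3.0 with it. DCN, a proteoglycan of fibroblasts, averaged 359 ± 193 CPM in doxorubicin hearts and 369 ± 26.8 CPM in vehicle hearts (adjusted p = 0.951). C1R and SERPING1 were highest in doxorubicin 3 and next highest in doxorubicin 5, the library with the largest fibroblast marker sum. The part of fibroblasts in the levels of C1R and SERPING1 was not tested.

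C3, the component on which all pathways converge, had 41.9, 98.4, 128, 78.0 and 208 CPM in doxorubicin libraries 1 to 5 and 76.7, 59.8 and 68.7 CPM in vehicle libraries 1 to 3. Of the treated libraries, 4 were above all vehicle libraries and doxorubicin 1 was below all of them. The log2 fold change was 0.70 (SE 0.43, adjusted p = 0.245), and 0.34 (adjusted p = 0.438) without doxorubicin 5. CFB, the gene of factor B, was close to the limit of detection, with 9, 36, 15, 24 and 11 reads in doxorubicin libraries 1 to 5 and 13, 16 and 20 reads in vehicle libraries 1 to 3. Its mean was 0.961 ± 0.564 CPM in doxorubicin hearts and 1.15 ± 0.250 CPM in vehicle hearts (log2 fold change -0.26, SE 0.51, adjusted p = 0.733), with a sign that turned to 0.09 under scaling to library size alone and a value of -0.11 without doxorubicin 5. The spread among the doxorubicin libraries was wider than the difference between the groups.

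CFD, the gene of factor D, was the only one of the 9 called lower. It had 71.5, 27.2, 25.9, 49.1 and 22.9 CPM in doxorubicin libraries 1 to 5 and 84.0, 121 and 139.9 CPM in vehicle libraries 1 to 3. Every doxorubicin library lay below every vehicle library, with doxorubicin 1 nearest to them. The log2 fold change was -1.55 (SE 0.37, adjusted p = 0.0183), and -1.40 (adjusted p = 0.0215) without doxorubicin 5. The call was lost without vehicle 1 (-1.73, adjusted p = 0.0538), without vehicle 2 (-1.51, adjusted p = 0.0565) and without vehicle 3 (-1.38, adjusted p = 0.0810).

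Of 6 adipocyte markers tested, 2 were lower, 0 higher and 4 not called, against 11.3% lower over all tested genes. DESeq2 called 4 lower and 0 higher, the same counts as an unadjusted p under 0.05, and limma voom 4 lower and 1 higher. PNPLA2, a triglyceride lipase gene also active outside fat, had a log2 fold change of 0.31 (adjusted p = 0.301). FABP4, a fatty acid binding protein of adipocytes and endothelium, averaged 84.2 ± 47.3 CPM in doxorubicin hearts and 319.6 ± 68.2 CPM in vehicle hearts (log2 fold change -1.92, SE 0.42, adjusted p = 0.0141; -1.73 without doxorubicin 5), a call lost in 2 of the 8 fits that left out a library. ADIPOQ, the adiponectin gene, was at 0 to 0.218 CPM in doxorubicin libraries and 2.08 to 18.8 CPM in vehicle libraries (adjusted p = 0.00525, and at most 0.0383 in any fit that left out a library). LEP was at 0 in all 3 vehicle libraries. The 8 listed markers summed to 457, 255, 234, 322 and 150.0 CPM in doxorubicin libraries 1 to 5 and 478, 571 and 649 CPM in vehicle libraries 1 to 3, which put the 8 libraries in the same order as CFD did. CFD was 0.107 to 0.156 of that sum in doxorubicin libraries and 0.176 to 0.215 of it in vehicle libraries. Relative to FABP4 alone, CFD was 0.387 to 0.641 in doxorubicin libraries and 0.334 to 0.378 in vehicle libraries, the opposite direction. These ratios were chosen after the values were seen, and the part of adipocyte number in the CFD result was not tested.

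The order of the genes by level differed between the groups. Per kilobase of the deposited gene length, C1QB (108 ± 53.0 CPM per kb) and C1QC (106 ± 50.7 CPM per kb) led in doxorubicin hearts. SERPING1 (58.9), C1QA (42.5), C1R (38.6), CFD (35.3), C1S (27.1) and C3 (21.1 CPM per kb) followed, and each pair of neighbours down to C3 overlapped in range. In vehicle hearts CFD led at 103 ± 25.4 CPM per kb, above SERPING1 at 39.1 ± 0.0788 and C1QB at 30.6 ± 5.37 CPM per kb, and neither of these steps overlapped. C1S (28.4), C1R (25.7), C1QC (23.5), C1QA (17.1) and C3 (13 CPM per kb) came next in vehicle hearts, with overlapping neighbours. CFB was last in both groups, at 0.365 ± 0.214 CPM per kb in doxorubicin hearts and 0.438 ± 0.0947 CPM per kb in vehicle hearts, separate from C3 in each. The leading gene of vehicle hearts was thus in sixth place in doxorubicin hearts.

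**Figure D4:**
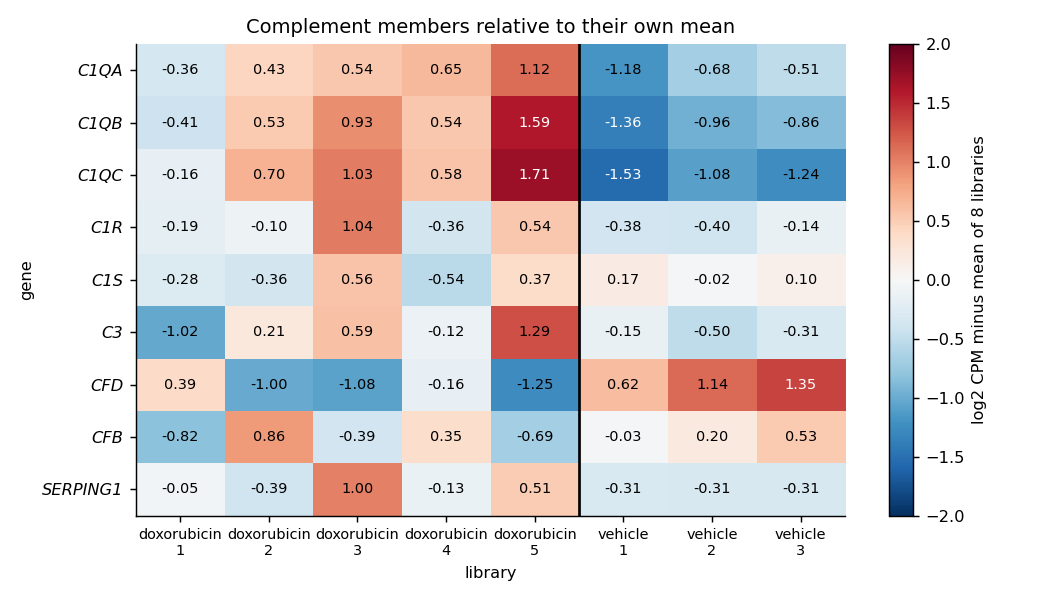
Log2 CPM of each gene (prior count 2) minus its own mean over the 8 libraries, doxorubicin libraries left of the line and vehicle libraries right of it. The C1q chains run from -1.53 (C1QC in vehicle 1) to 1.71 (C1QC in doxorubicin 5), CFD runs the other way, and C1R and SERPING1 peak in doxorubicin 3.

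The genes differed in their course across the 8 libraries. The distance between profiles was the root mean square difference of log2 CPM after centring each gene on its mean. C1R and SERPING1 were closest (0.16), followed by C1QB and C1QC (0.19), C1QA and C1QB (0.28), and C1R and C1S (0.33). C1QC and CFD were farthest apart (2.04). Among the treated libraries all C1q chains and C3 were lowest in doxorubicin 1 and highest in doxorubicin 5, while CFD was highest in doxorubicin 1 and lowest in doxorubicin 5. C1R, C1S and SERPING1 all had doxorubicin 3 highest and doxorubicin 5 next, and they differed in the order below. Doxorubicin 4 was lowest for C1R and C1S, and doxorubicin 2 was lowest for SERPING1. These distances are descriptions over 8 libraries of 2 treatments, with no test.

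The genes with the most similar course were sought among 12205 to 12207 genes with a mean of at least 1 CPM. Genes without a symbol or with a LOC name were left out, and the rest of the 9 stayed in the search. Nearest to the mean of the C1q chains were VAV1 (0.15), a signalling adaptor of blood cells, ZFAND2A (0.17) and VSIG4 (0.18), a complement receptor of resident macrophages. Nearest to C1R and C1S were TTLL4 (0.11), CARMIL1 (0.14) and SLC43A3 (0.16). The nearest to C3 were FAM149A, CD180 and PQLC3, at 0.19 to 0.21. SERPING1 had C1R itself as its nearest gene, before CARMIL1 (0.17) and GLB1L (0.17). Nearest to CFD were EPHX2 (0.25), which encodes soluble epoxide hydrolase, N4BP2L1 (0.26) and PID1 (0.27), and all 3 were also called lower, with log2 fold changes of -1.5, -1.84 and -1.61. CFB, at its low counts, had INSC, SYNRG and ALDH5A1 nearest, at 0.23 to 0.28.

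Other genes of the complement system were examined as a list of 54, of which 53 had rows and 36 had enough reads to test. Of the 36, 9 were higher, 0 were lower and 27 did not pass, 25% called against 24.9% over all tested genes. Their median log2 fold change was 0.60, against 0.02 over all tested genes. At an unadjusted p under 0.05, 14 were higher and 2 lower. DESeq2 called 12 higher and 2 lower, and limma voom 16 higher and 5 lower. The count of 9 higher fell to 1, 4 and 0 without vehicle 1, 2 and 3 and to 5 without doxorubicin 3, and it was 16 with scaling to library size alone.

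**Figure D5:**
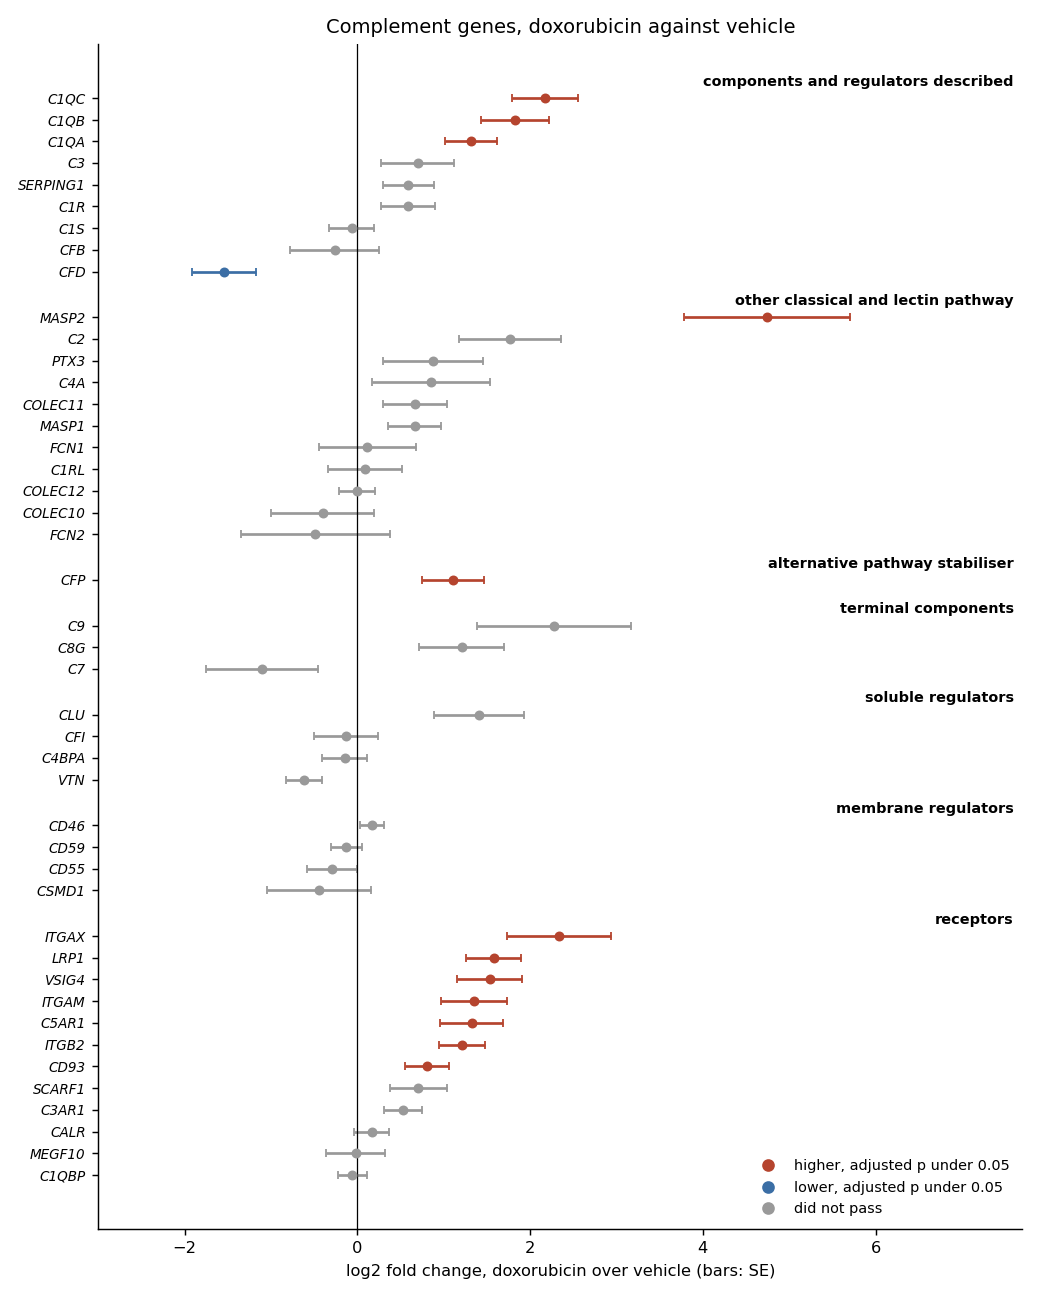
Log2 fold change, doxorubicin over vehicle, with its SE (bars) for the 9 genes described and other complement genes tested, grouped by role and coloured by call. Receptors hold 7 of the 9 higher calls outside the C1q chains, and CFD is the only gene called lower.

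The receptor list held most of the calls, with 7 of 12 tested genes higher and 0 lower, against 13.6% higher over all tested genes (8 and 0 at an unadjusted p under 0.05 and by limma voom, 7 and 0 by DESeq2). With the gene density trend removed 4 were higher, and C5AR1 (adjusted p = 0.0563), ITGAM (0.136) and ITGAX (0.0535) lost their calls. LRP1, a large endocytic receptor that also takes up C1q-tagged material, had 146, 199, 306, 140.2 and 294 CPM in doxorubicin libraries 1 to 5 and 87.8, 56.5 and 73.9 CPM in vehicle libraries 1 to 3. The groups did not overlap, and the log2 fold change was 1.58 (SE 0.32, adjusted p = 0.0116). ITGB2, the common chain of the C3 fragment receptors CR3 and CR4, averaged 23.8 ± 6.94 CPM in doxorubicin hearts and 10.3 ± 0.690 CPM in vehicle hearts (adjusted p = 0.0136). ITGAX, the CR4 alpha chain, averaged 6.95 ± 4.18 CPM in doxorubicin hearts and 1.37 ± 0.673 CPM in vehicle hearts (adjusted p = 0.0228). VSIG4 averaged 26.2 ± 12.6 CPM in doxorubicin hearts and 9.08 ± 1.12 CPM in vehicle hearts (adjusted p = 0.0205). The other calls were C5AR1, the receptor of the C5a peptide, ITGAM, the CR3 alpha chain, and CD93, once described as a C1q receptor, with log2 fold changes of 1.32, 1.35 and 0.81. They were named after their values were seen, and CD93 overlapped between the groups. Without doxorubicin 5 all 7 were called, with log2 fold changes of 1.45 for LRP1, 1.08 for ITGB2, 2.10 for ITGAX, 1.25 for VSIG4, 1.07 for C5AR1, 1.51 for ITGAM and 0.95 for CD93. Each of the 7 was lost in at least 1 of the 8 fits that left out a library, LRP1 without vehicle 3 alone (adjusted p = 0.0589), ITGB2 without vehicle 1 (0.0679) and vehicle 3 (0.0602), VSIG4 and ITGAX without each vehicle library (at most 0.0940 and 0.0817), and C5AR1, ITGAM and CD93 in 4, 6 and 7 fits (at most 0.120, 0.118 and 0.161). CALR (228 ± 49.5 CPM in doxorubicin hearts, 203 ± 8.70 CPM in vehicle hearts) and C1QBP (98.1 ± 15.3 CPM in doxorubicin hearts and 102 ± 9.22 CPM in vehicle hearts), proteins that bind C1q, did not pass.

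In the rest of the classical and lectin pathways 1 of 11 tested genes was higher and 0 were lower (2 and 0 at an unadjusted p under 0.05 and by DESeq2, 5 and 0 by limma voom). Over all tested genes 13.6% were higher and 11.3% lower, so this count was not above the share of all genes. The gene called was MASP2, a lectin pathway protease, with 32, 84, 181, 12 and 95 reads in doxorubicin libraries 1 to 5 and 2, 3 and 1 reads in vehicle libraries 1 to 3 (log2 fold change 4.75, SE 0.96, adjusted p = 0.0114; 4.68 without doxorubicin 5). MASP2 overlaps TARDBP on the opposite strand, which had 1461 to 1765 reads in doxorubicin libraries and 1301 to 1616 reads in vehicle libraries, and the MASP2 call was lost without vehicle 1 (adjusted p = 0.0592) and vehicle 3 (0.0599). C2, the substrate of C1s and the neighbour of CFB, averaged 15.1 ± 10.3 CPM in doxorubicin hearts and 4.45 ± 0.749 CPM in vehicle hearts (log2 fold change 1.77, SE 0.59, adjusted p = 0.0538; 1.53 without doxorubicin 5). MASP1 averaged 167 ± 32.1 CPM in doxorubicin hearts and 106 ± 53.2 CPM in vehicle hearts (adjusted p = 0.131), and COLEC11, a collectin, 3.26 ± 1.08 CPM in doxorubicin hearts and 2.05 ± 0.164 CPM in vehicle hearts (adjusted p = 0.201). CFP, which encodes properdin, the stabiliser of the alternative pathway convertase, had 40 to 57 reads in doxorubicin libraries and 11 to 21 reads in vehicle libraries (log2 fold change 1.11, SE 0.36, adjusted p = 0.0476). Leaving out any of the 8 libraries ended the CFP call (adjusted p 0.0547 to 0.164).

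Of 5 soluble regulators tested 0 passed, against 24.9% called over all tested genes (1 higher and 2 lower at an unadjusted p under 0.05 and by DESeq2, 1 and 3 by limma voom). VTN, the vitronectin gene, averaged 22.9 ± 5.26 CPM in doxorubicin hearts and 35.1 ± 5.23 CPM in vehicle hearts (adjusted p = 0.0523), and passed without doxorubicin 5 (log2 fold change -0.53, adjusted p = 0.0483). CLU, the gene of clusterin, averaged 266 ± 186 CPM in doxorubicin hearts and 100.2 ± 15.2 CPM in vehicle hearts (adjusted p = 0.0728), with doxorubicin 5 at 556 CPM and a log2 fold change of 1.41, or 0.96 (adjusted p = 0.0832) without it. C4BPA averaged 55.4 ± 16.5 CPM in doxorubicin hearts and 61.3 ± 13 CPM in vehicle hearts at the tested locus of that name.

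Of 4 membrane regulators tested 0 passed, against 24.9% called over all tested genes (0 at an unadjusted p under 0.05 and by DESeq2, 1 lower by limma voom). CD59, which blocks assembly of the lytic pore, averaged 162 ± 31.6 CPM in doxorubicin hearts and 177 ± 7.22 CPM in vehicle hearts (log2 fold change -0.13, adjusted p = 0.626), and CD46, a cofactor for C3b cleavage, 82.8 ± 8.84 CPM in doxorubicin hearts and 73.5 ± 4.68 CPM in vehicle hearts (adjusted p = 0.389). CD55 averaged 8.43 ± 1.90 CPM in doxorubicin hearts and 10.3 ± 4.45 CPM in vehicle hearts, and CSMD1 was under 1 CPM on average in both groups. Terminal components were sparse: 3 of 7 had enough reads to test and 0 passed, against the same 24.9% (2 higher and 0 lower at an unadjusted p under 0.05, 1 and 0 by DESeq2, 1 and 1 by limma voom). C7 averaged 12.6 ± 7.68 CPM in doxorubicin hearts and 27.0 ± 12.3 CPM in vehicle hearts (log2 fold change -1.10, SE 0.65, adjusted p = 0.228). C9 had 8 to 39 reads in doxorubicin libraries and 0 to 6 reads in vehicle libraries (adjusted p = 0.0866), and C8G averaged 2.01 ± 0.696 CPM in doxorubicin hearts and 0.866 ± 0.515 CPM in vehicle hearts (adjusted p = 0.0985).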

How the data were processed

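Messenger RNA of 8 heart samples was sequenced with SMARTER mRNA libraries, per the labels' protocols. The authors deposited raw counts per gene, with 1 column per sample, matched to the samples by their titles. The sources used here give no aligner, counter, annotation release or strand setting. Identifiers of 30335 genes matched RefSeq Sscrofa11.1 with the same start and end, all 9 members among them. Same-group libraries differed beyond sampling noise, so none was counted as a copy. Library totals were 16105242 to 18267178 counts.

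Counts were tested with edgeR 4.0.16 (robust quasi-likelihood, filterByExpr with a minimum count of 10 and total of 15, TMM factors, two-sided, Benjamini-Hochberg over 14938 genes, threshold 0.05) in R 4.3.3. CPM are TMM-scaled, and CPM per kb also use the gene length the authors deposited. Alternatives were limma 3.58.1 (voom, quality-weighted), DESeq2 1.42.0, other scalings and filters, a replicate block, leaving out each library and, chosen after seeing the data, removal of trends with gene length and with local gene density (number of coding genes inside 500 kb). The fitting step was tested on simulated data. The members and gene lists were chosen with earlier results of these data known, so counts over them carry no test. Named from each list were up to 4 genes of smallest p, complement genes with a mean above 100 CPM, up to 3 markers of the macrophage, fibroblast, adipocyte and mesothelial lists, and the 3 genes nearest in profile; others are named as chosen after their values were seen, or as defining markers. Values of some listed genes are not reported here.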

Additional observations from a re-analysis of the deposited data

How the results depend on the processing

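The C1q chains stayed higher and CFD lower, on the log2 scale, under every alternative run. Leaving out each library in turn gave log2 fold changes of 1.13 to 1.47 for C1QA, 1.52 to 2.01 for C1QB, 1.88 to 2.35 for C1QC, 0.32 to 0.71 for C1R, -0.24 to 0.044 for C1S, 0.34 to 0.90 for C3, -1.88 to -1.38 for CFD, -0.62 to -0.09 for CFB and 0.34 to 0.72 for SERPING1. C1S turned to 0.30 and CFB to 0.087 with scaling to library size alone, and C1S reached -0.40 (adjusted p = 0.0319) by limma voom. C1R was 0.13 by limma voom, 0.19 with the gene density trend removed and 0.96 with library size alone. SERPING1 was 0.17, 0.25 and 0.97 in the same settings, and neither gene passed in any of them. Member calls ran from 0 to 3 higher and from 0 to 1 lower when a library was left out, and limma voom called 2 lower. Other complement genes ran from 0 to 10 higher and 0 to 2 lower when a library was left out. They were 16 higher under library size alone and under limma voom and 5 with the gene density trend removed. Their lower calls were 2 by DESeq2, 5 by limma voom and 1 with either the density or the length trend removed. All tested genes ran from 334 to 2472 higher and 315 to 2265 lower when a library was left out; library size alone gave 4093 higher and 499 lower, limma voom 4030 higher and 4021 lower, and a minimum of 2-fold 496 lower. Leaving out any 1 of the 3 vehicle libraries ended many calls, and the cause of these and the other changes was not tested. Deviations of same-numbered samples from their group means correlated weakly (r = 0.0425, 0.00205 and -0.00312 for replicates 1, 2 and 3). Samples of different numbers ran from -0.12 to 0.13. With 3 vehicle libraries these values cannot settle whether the replicate number pairs samples, and the labels do not say. With the replicate number as a block the CFD log2 fold change was -1.62 (adjusted p = 0.0513), members called lower were 0, and other complement genes called lower were 3.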

Other observations

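Other gene groups tied to complement were counted in the same fit. Of 12 transcription factors known to act on complement genes, 4 were higher and 0 lower in doxorubicin hearts, against 13.6% higher and 11.3% lower over all tested genes (2 and 0 with the gene density trend removed, 5 and 0 at an unadjusted p under 0.05 and by DESeq2, 7 and 2 by limma voom). Among them were RELA, a subunit of NF-kappaB (40.3 ± 4.0 CPM in doxorubicin hearts, 23.4 ± 3.69 CPM in vehicle hearts, adjusted p = 0.0113), and the myeloid factors IRF8 (16.7 ± 6.31 CPM in doxorubicin hearts and 6.60 ± 1.79 CPM in vehicle hearts, adjusted p = 0.0220) and SPI1 (33.4 ± 11.1 CPM in doxorubicin hearts and 16.1 ± 3.61 CPM in vehicle hearts, adjusted p = 0.0300). Each of these 3 was lost in 2 to 5 of the 8 fits that left out a library, and RELA (adjusted p = 0.202) and SPI1 (0.0647) also with the gene density trend removed. Of 8 cytokine receptors tested 0 passed (0 at an unadjusted p under 0.05 and by DESeq2, 1 lower by limma voom). Among 15 interferon-stimulated genes IRF7 was higher (23.3 ± 14.2 CPM in doxorubicin hearts, 5.08 ± 0.593 CPM in vehicle hearts, adjusted p = 0.0193), while GBP2 (13.7 ± 0.881 CPM in doxorubicin hearts and 22.1 ± 2.87 CPM in vehicle hearts, adjusted p = 0.0125) and CXCL10 (34 ± 12 CPM in doxorubicin hearts and 83.3 ± 12.9 CPM in vehicle hearts, adjusted p = 0.0157) were lower. ISG15 (65.5 ± 33.3 CPM in doxorubicin hearts and 31.0 ± 9.38 CPM in vehicle hearts, adjusted p = 0.0912) did not pass. Calls were lost in 3, 1 and 3 of the 8 fits for IRF7, GBP2 and CXCL10.

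Of 12 genes with rows in a list of proteases and serpins of the contact, clotting and fibrinolytic systems, 5 had enough reads to test. Of these 5, 4 were higher and 0 lower, against 13.6% higher over all tested genes. The counts were 2 and 0 with the gene density trend removed and 5 and 0 by limma voom. They were 4 and 0 at an unadjusted p under 0.05 and by DESeq2. SERPINF1, the gene of pigment epithelium-derived factor, averaged 159.7 ± 59.2 CPM in doxorubicin hearts and 43.9 ± 16.9 CPM in vehicle hearts (adjusted p = 0.0109). It was listed as a serpin and counted among the 4, but it is not a factor of the contact, clotting or fibrinolytic systems. The plasminogen activator genes PLAT (73.0 ± 23.9 CPM in doxorubicin hearts and 36.5 ± 1.65 CPM in vehicle hearts, adjusted p = 0.0258) and PLAU (19.3 ± 6.88 CPM in doxorubicin hearts and 10.2 ± 1.28 CPM in vehicle hearts, adjusted p = 0.0431) were higher. Calls were lost in 2, 3 and 5 of the 8 fits for SERPINF1, PLAT and PLAU.

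Other cell type lists gave these counts of higher and lower calls. T and NK cell markers had 6 of 8 higher and 0 lower, against 13.6% higher over all tested genes (4 and 0 with the gene density trend removed, 7 and 0 at an unadjusted p under 0.05, by DESeq2 and by limma voom), at a summed 17.7 to 37.8 CPM in doxorubicin libraries and 7.79 to 11.4 CPM in vehicle libraries. Pan-leukocyte markers had 1 higher and 1 lower of 4. Endothelial (8 tested), cardiomyocyte (9 tested), neutrophil (2 tested) and hepatocyte (2 tested) markers had 1 lower and 0 higher each, where limma voom called 1 higher and 3 lower among endothelial and among cardiomyocyte markers and 0 higher and 1 lower in the other lists. Over all tested genes 11.3% were lower, and the lower calls were 12.5% of tested endothelial and 11.1% of tested cardiomyocyte markers, near that share. Smooth muscle and pericyte markers had 2 higher and 1 lower of 7. Mesothelial (2 tested), B and plasma cell (1 tested), mast cell (3 tested), red blood cell (2 tested) and Schwann cell (5 tested) markers had 0 calls by edgeR's test. At an unadjusted p under 0.05 and by DESeq2, mast cell markers had 1 higher and Schwann cell markers 1 lower, and limma voom called 2 red blood cell and 2 Schwann cell markers lower. The tested mesothelial markers were WT1 (11.3 ± 11.9 CPM in doxorubicin hearts, 4.46 ± 0.903 CPM in vehicle hearts) and KRT19 (under 1 CPM on average in both groups). Hepatocyte markers summed to 31.3 to 42.8 CPM in doxorubicin libraries and 31.3 to 48.8 CPM in vehicle libraries, with AHSG at 0 in all 8.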
